A study of Mus musculus with 32 samples.

Results

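Eif4ebp3 encodes the third of the eIF4E-binding proteins, a small family that represses translation. It was chosen by its row in the table of liver experiment T, with its SXB difference already known, and is 1 of 306 genes listed there. All 306 had been selected by the authors from the same 16 libraries, by the size of the fold change (at least 2-fold up or down) together with an unadjusted p under 0.05. The difference between SXB and vehicle is therefore given as a description, without a test. The second experiment, P, lists 242 genes, and Eif4ebp3 is not among them, so its level in P is not analysed here.

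C57BL/6J mice received sodium oxybate (SXB), a salt of gamma-hydroxybutyrate used against narcolepsy, or vehicle, and RNA of their livers was sequenced. Experiment T has 8 libraries labelled T_SXB and 8 labelled T_Vehicle; both groups share the strain, and the labels give no further genotype. Dose, duration, diet, age and sex are not stated in the labels, nor is it stated which form of obesity, developing or established, the letter T stands for. The labels do not tie libraries to single animals, so SDs and p-values here measure the spread between libraries, which may in part be technical.

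Translation of most messenger RNAs starts when eIF4E binds the cap at the 5′ end and recruits the scaffold eIF4G. The eIF4E-binding proteins hold the site on eIF4E that eIF4G needs, and the kinase complex mTORC1 releases them by phosphorylation. In human cell lines the gene of the third member is switched on by the transcription factor TFE3 when mTORC1 stays inhibited, whereas the first and second members are regulated mainly through phosphorylation.

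On GRCm38 (GENCODE M21), Eif4ebp3 (ENSMUSG00000090264) lies on the plus strand of chromosome 18 from 36664060 to 36665917. Its single annotated transcript has 3 exons, of 243, 174 and 327 bases, with 303 coding bases, or 101 codons. A longer protein-coding model, AC115631.1, runs from 36647860 to 36665917 on the same strand and shares 501 of the 744 exonic bases of Eif4ebp3 (67.3%), 200 of them coding. Upstream, Ankhd1 ends 5147 bases before Eif4ebp3 begins and shares no exonic base with it. Reads of the shared exons could be assigned to either model, and the labels do not state how they were assigned. Neither AC115631.1 nor Ankhd1 is listed in T.

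Eif4ebp3 was high in most T_SXB libraries and low in most T_Vehicle libraries. The values are the authors' normalised expression per gene and library, rounded to 0.01, without a stated unit. In the T_SXB libraries 1, 2, 3, 7, 9, 12, 13 and 18 the values were 126.88, 121.57, 64.8, 58.54, 122.93, 146.41, 151.15 and 13.48. In the T_Vehicle libraries 4, 6, 8, 10, 11, 14, 15 and 16 they were 12.03, 27.58, 29.6, 35.77, 22.36, 41.83, 69.17 and 134.67. The groups overlapped. T_Vehicle library 15, at 69.17, lay above T_SXB libraries 3 and 7. T_SXB library 18 was the lowest of its group, below every T_Vehicle library but 4. T_Vehicle library 16 was the highest of its group, above every T_SXB library but 12 and 13. Libraries 16 and 18 are also those whose columns stand in the block of the other group in the authors' table, so their labels and their place in the table disagree. Which of the 2 is right was not tested, and results are given with and without both libraries.

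**Figure D1:**
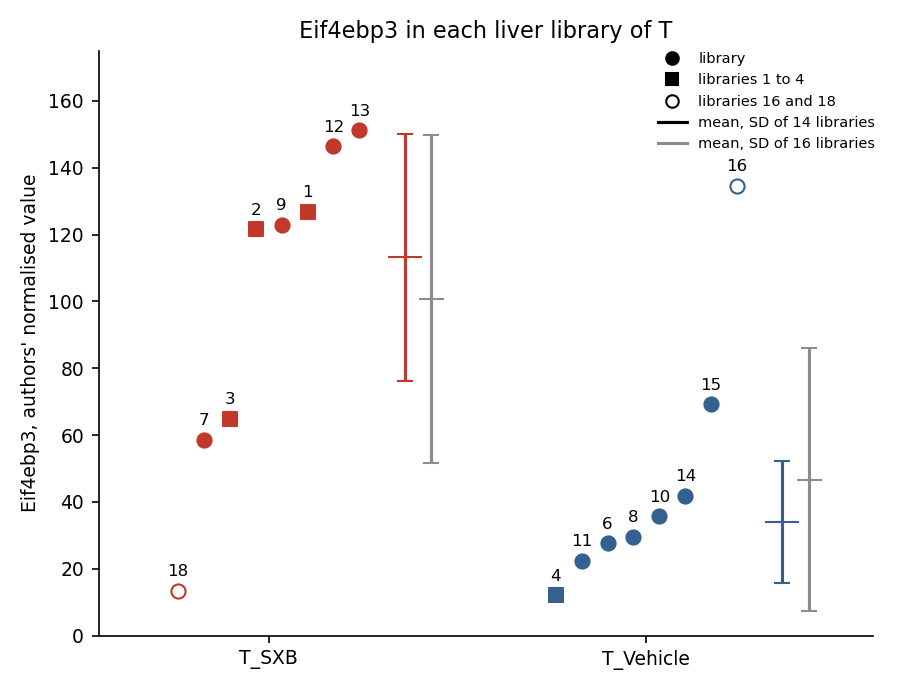
Eif4ebp3 in each of the 8 T_SXB and 8 T_Vehicle liver libraries, as the authors' normalised value on a linear axis from 0, with library numbers beside the points; bars give the mean and SD of the 14 libraries without 16 and 18 (coloured) and of all 16 (grey). T_SXB library 18, at 13.48, and T_Vehicle library 16, at 134.67, stand apart from their groups.

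By label over all 16 libraries, Eif4ebp3 averaged 100.7 ± 49.2 in T_SXB and 46.6 ± 39.4 in T_Vehicle (SD, n = 8 each), a ratio of means of 2.16. The medians, 122.3 and 32.7, differed 3.74-fold. On the log2(value + 1) scale the difference of T_SXB minus T_Vehicle was 1.16, with an SE of 0.52 from limma fitted to the whole table. The spread within groups on that scale, an SD of 1.09, was about as large as the difference. The values of the groups overlapped, as they did for every listed gene: 0% of the 306 had no overlap by label.

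Without libraries 16 and 18, Eif4ebp3 averaged 113.2 ± 37.0 in T_SXB and 34.05 ± 18.2 in T_Vehicle (SD, n = 7 each). The ratio of means was 3.32 and the log2 difference 1.79 (SE 0.34), against a within-group SD of 0.66. In these 14 libraries 5 of 7 T_SXB values lay above every T_Vehicle value, and 6 of 7 T_Vehicle values lay below every T_SXB value. The overlap came from T_Vehicle library 15, at 69.17, above T_SXB libraries 3 and 7, at 64.8 and 58.54. Groups without overlap were found for 0.98% of the listed genes, namely Cep85, Hamp and Mup-ps12, and Eif4ebp3 was not one of them. By size of the log2 difference Eif4ebp3 stood at rank 3 of 306 from the highest, beside rank 9 by label over all 16 libraries. This rank favours well-expressed genes, because the added 1 understates the change of low genes: with a pseudocount of 0.01 in the 14 libraries the difference was 1.82 and the rank 44, while the median difference over all genes was -0.68 in place of -0.04.

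With the groups of libraries 16 and 18 exchanged, as their column blocks would have it, the means were 115.9 ± 35.1 for SXB and 31.5 ± 18.3 for vehicle (SD, n = 8 each). The ratio was then 3.68, beside 2.16 by label and a fold change of 3.61 in the authors' deposited table. The authors' fold change is thus nearer the ratio by column block. Their p-values may therefore belong to that grouping and not to the labels. The authors' table gives Eif4ebp3 an unadjusted p of 1.18e-06 and an adjusted p of 0.00127, rank 12 of the 306 adjusted p-values. By fold change it ranks 57 from the highest in the authors' deposited table.

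Libraries 1 to 4 differ from the others in the mitochondrial gene mt-Atp6, with 486.4 or more in each of them and 44.8 or less in all others. They hold both high and low values of Eif4ebp3, namely 126.88, 121.57 and 64.8 in T_SXB and 12.03 in T_Vehicle. Library 4 has the lowest value of all 16 and the highest of mt-Atp6, 6421.52. Without libraries 1 to 4, 16 and 18, Eif4ebp3 averaged 119.8 ± 42.6 in T_SXB (n = 4) and 37.7 ± 16.8 in T_Vehicle (SD, n = 6), a ratio of 3.18 and a log2 difference of 1.65 (SE 0.36). By label with libraries 16 and 18 kept and 1 to 4 left out, the difference was 0.78 (SE 0.64).

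No single library set the direction of the difference. With each of the 14 libraries omitted singly, log2 differences ran from 1.58 (without T_Vehicle library 4, the lowest) to 1.98 (without T_Vehicle library 15). From all 16 libraries by label the range was 0.94, without library 4, to 1.52, without library 18. Removing library 16 alone gave a ratio of means of 2.96, and removing library 18 alone 2.43, beside 2.16 with both.

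**Figure D2:**
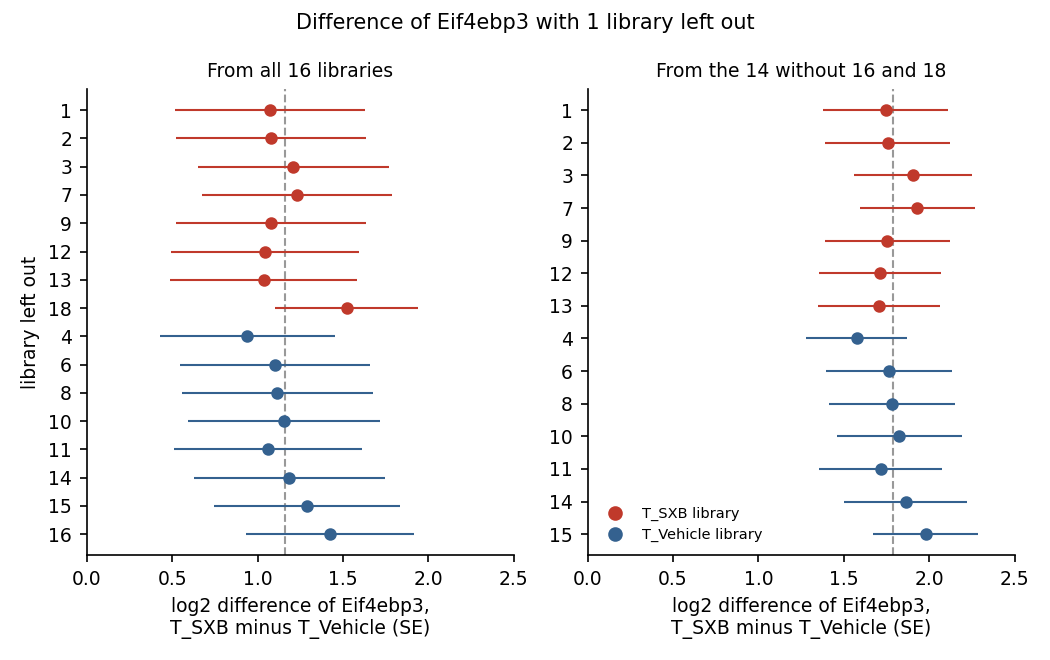
The log2 difference of Eif4ebp3, T_SXB minus T_Vehicle, with 1 library left out at a time; points are differences, bars their SE from limma, rows the library left out and dashed lines the value with none left out. All points lie above 0, between 0.94 and 1.52 from 16 libraries and between 1.58 and 1.98 from the 14.

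Little of the translation pathway is listed beside it. None of 25 other genes of eIF4E binding and cap-dependent initiation is in the table of T, among them Eif4ebp1 and Eif4ebp2, the other binding proteins, and Eif4e itself. Likewise none of 27 genes of mTORC1 and its regulators and none of 24 TFE3, TFEB and lysosomal targets is listed, nor any of 28 fasting and PPARA targets or 19 clock genes. Their levels are not analysed here. A table selected on fold change cannot show whether they were unchanged. Of 30 genes of the integrated stress response, through which amino acid and unfolded protein stress raise ATF4, there are 2. Gdf15, a stress hormone, averaged 4.73 ± 4.55 in T_SXB and 21.95 ± 16.8 in T_Vehicle, and Asns, asparagine synthetase, had a log2 difference of 0.93 (14 libraries).

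Covariation within groups was not used to choose Eif4ebp3 or to select the table, and could be tested. Each of the 305 other listed genes was fitted in limma with the treatment group and the log2(value + 1) of Eif4ebp3 as terms, over the 14 libraries. No gene passed an adjusted p of 0.05 (0% of 305, smallest limma adjusted p = 0.118). At an unadjusted p below 0.05 there were 35 genes, or 11.5%, of which 4 varied with Eif4ebp3 and 31 against it. A permutation test within groups passed 0 genes for Pearson's r and 0 for Spearman's rho as well, with 27 and 20 at an unadjusted p below 0.05. Most genes leaned the same way: r was negative for 203 of the 305, with a median of -0.17. This lean depended on scaling, since dividing each library by its median ratio to the gene means brought the median r to -0.02, with 160 negative. The scaling factors, from 0.55 to 1.07, rest on the 152 listed genes above 0 in every library. These genes come from a selected table, so scaling may also remove variation that they share.

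The genes most unlike Eif4ebp3 are described next, by the size of r over deviations from the group means. Tubb2a, a beta-tubulin, had 7.67, 9.62, 17.17, 22.74, 13.53, 7.88 and 12.42 in T_SXB libraries 1, 2, 3, 7, 9, 12 and 13. It had 62.03, 17.74, 27.89, 33.44, 69.49, 10.57 and 13.54 in T_Vehicle libraries 4, 6, 8, 10, 11, 14 and 15. In each group the highest values of Tubb2a fell in libraries low in Eif4ebp3: libraries 7 and 3 of T_SXB, and 11 and 4 of T_Vehicle. Its r was -0.79 and its rho -0.76, with permutation p = 0.00161 and 0.00401 (adjusted over 305 genes, 0.23 and 0.44; limma adjusted p = 0.118). The slope was -0.97 log2 units per log2 unit of Eif4ebp3 (SE 0.22), and r was -0.83 within T_SXB, -0.79 within T_Vehicle and -0.67 without libraries 4 and 7, whose deviations in Eif4ebp3 lie farthest from the median of the 14 deviations. With 1 library left out at a time, library 15 included, it ran from -0.83 to -0.73.

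Cd36, a fatty acid carrier of the cell membrane, showed a similar pattern. It had 5.75, 1.59, 11.58, 7.75, 7.66, 2.96 and 1.77 in T_SXB libraries 1, 2, 3, 7, 9, 12 and 13. In T_Vehicle libraries 4, 6, 8, 10, 11, 14 and 15 it had 21.32, 5.4, 5.59, 7.58, 18.48, 6.06 and 6.25. Its r was -0.71 and its rho -0.55 (permutation p = 0.00446 and 0.0526, adjusted 0.271 and 0.699; limma adjusted p = 0.209). The value of r was -0.72 within T_SXB, -0.74 within T_Vehicle and -0.59 without libraries 4 and 7.

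Further genes that ran against Eif4ebp3 were Phospho1, a phosphatase of phosphocholine and phosphoethanolamine (r = -0.66, rho = -0.60; permutation p = 0.0132 and 0.0316), and Ccl2, the monocyte chemoattractant (r = -0.63, rho = -0.27; p = 0.0265 and 0.364). Their permutation p adjusted for r was 0.426 and 0.523, and without libraries 4 and 7 r was -0.58 and -0.67. For Ccl2 the rank measure was much smaller, and without library 4, which holds its highest value of 9.41, its r was -0.38. Scaling the libraries brought r of Tubb2a to -0.52, and left Cd36 at -0.68. The smallest limma p of all belonged to Fcer2a, the low-affinity IgE receptor of B cells, named here after its values were seen. It had r = -0.82 and rho = -0.74 (permutation p = 0.00255 and 0.0035, limma adjusted p = 0.118). Its level was low, at 0.183 ± 0.0759 in T_SXB and 0.347 ± 0.195 in T_Vehicle (SD, n = 7 each), and below 1 in every library.

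**Figure D3:**
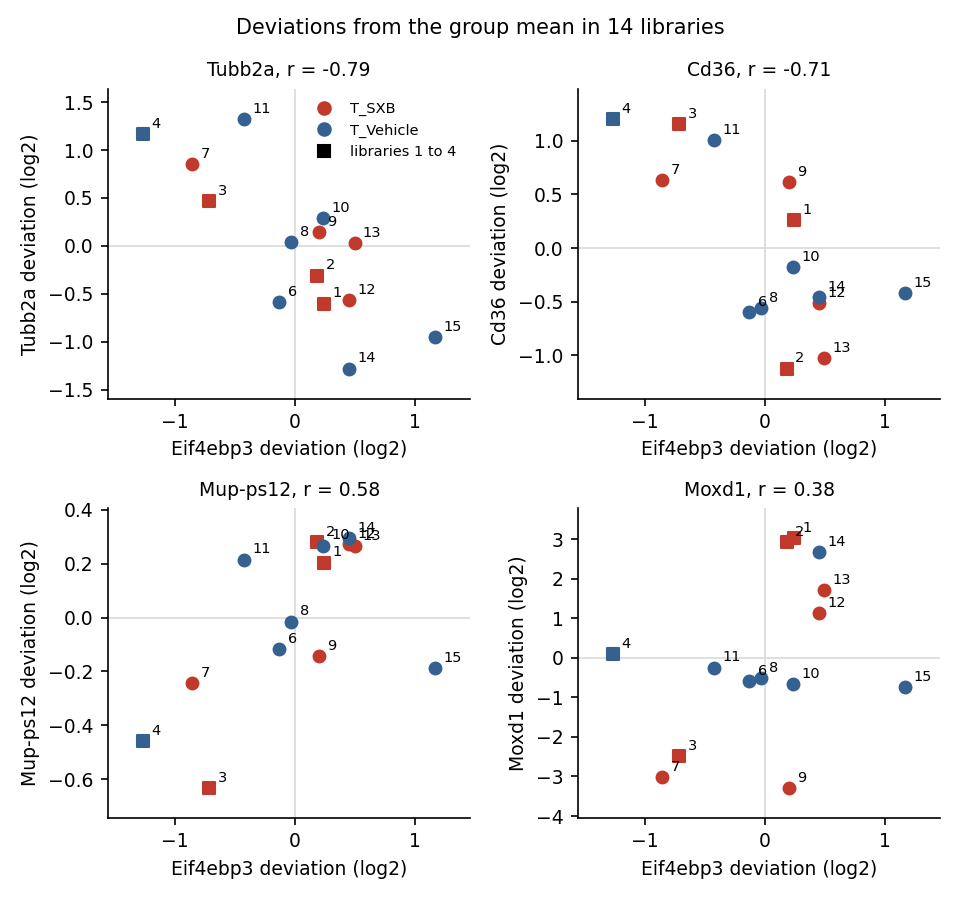
Deviations from the group mean on the log2(value + 1) scale in the 14 libraries without 16 and 18: Eif4ebp3 on the x axis and Tubb2a, Cd36, Mup-ps12 and Moxd1 on the y axes, with library numbers beside the points, T_SXB in red, T_Vehicle in blue and squares for libraries 1 to 4. Tubb2a and Cd36 run against Eif4ebp3 in both groups (r = -0.79 and -0.71), while r was 0.58 for Mup-ps12 and 0.38 for Moxd1.

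On the other side, Mup-ps12, a pseudogene of the major urinary proteins, had the highest r of the genes open to the naming rule (symbols other than Gm or Rik models, averaging 1 or more in either group), with r = 0.58 and rho = 0.56 (permutation p = 0.0293 and 0.0481, adjusted 0.523 and 0.699; limma adjusted p = 0.355). It was 4.0 ± 1.1 in T_SXB and 7.84 ± 1.64 in T_Vehicle (SD, n = 7 each), so between the groups its means went against those of Eif4ebp3 while within groups it went with it. Its r was 0.79 with scaled libraries, larger in size than those of Tubb2a and Cd36. Without library 15 it was 0.83, and Mup-ps12 then passed the adjusted limma threshold. It was 0.37 without libraries 4 and 7 and -0.43 over all 16 libraries by label. It belongs to a family of near-identical copies, so its values are uncertain.

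Moxd1, a monooxygenase-like gene, had r = 0.38 and rho = 0.33 (permutation p = 0.143 and 0.248, adjusted 0.614 and 0.745). It was 79.9, 74.42, 0.79, 0.23, 0.02, 20.89 and 31.4 in T_SXB libraries 1, 2, 3, 7, 9, 12 and 13, and 9.87 in T_Vehicle library 14 against 0.82 or less in the other 6 T_Vehicle libraries. The 4 T_SXB libraries high in Moxd1 are all among the 5 above 120 in Eif4ebp3, and the fifth, library 9, had 0.02. The remaining genes that the naming rule took were Dnai1, a dynein chain of cilia, the serine protease inhibitor Serpina1e, the meiotic gene Rec114, the calpain Capn8, the zinc finger repressor Zbtb16 and Enho, which encodes adropin. Their r ran from 0.36 for Dnai1 down to 0.18 for Enho, with permutation p from 0.169 to 0.57, and that of Zbtb16 changed sign with the rank measure (rho = -0.03).

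**Figure D4:**
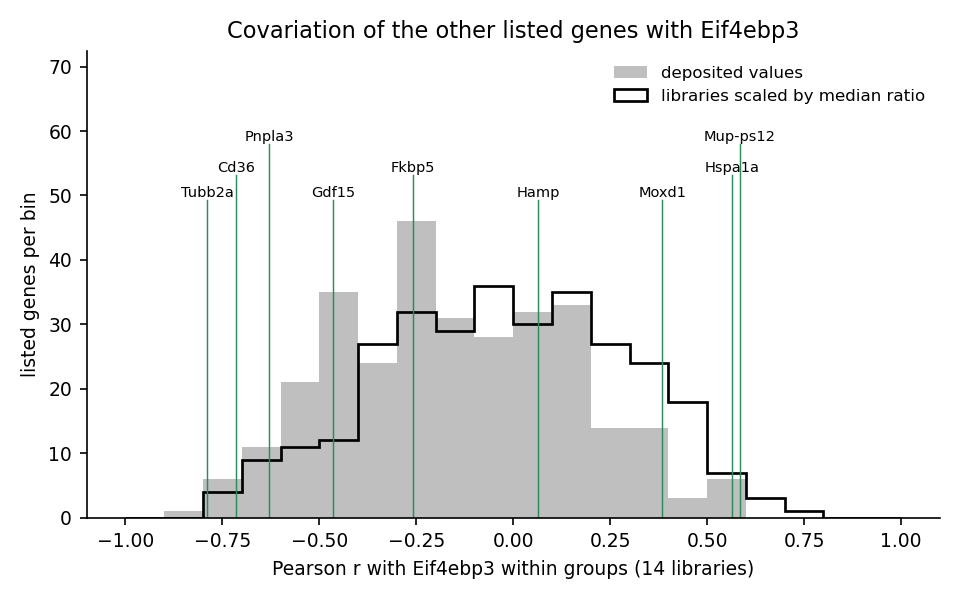
Number of the 305 other listed genes in each bin of Pearson's r with Eif4ebp3 within groups over 14 libraries; grey bars use the deposited values, the black outline the libraries scaled by median ratio, and green lines mark named genes. The median is -0.17 for the grey bars and -0.02 for the outline; Tubb2a at -0.79 and Cd36 at -0.71 lie in the lower tail.

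Among gene groups with more than 1 listed member, macrophage and monocyte markers had the most negative median r (-0.63), followed by SREBP targets (-0.59), endothelial and stellate markers (-0.52) and lipid storage (-0.50). All 8 listed of 23 genes of lipid storage had a negative r, beside 203 of all 305 genes. Of these 8, 4 had an unadjusted limma p below 0.05, beside 35 of 305, and none passed the adjusted threshold. Beside Cd36 they include Pparg, the nuclear receptor that drives fat storage (r = -0.58, rho = -0.61; permutation p = 0.0277 and 0.0268), Clstn3 (r = -0.57, rho = -0.50; p = 0.034 and 0.0832) and Pnpla3, a lipase of lipid droplets (r = -0.63, rho = -0.36; p = 0.0455 and 0.221). With scaled libraries 6 of the 8 were negative, with a median of -0.29. All 8 were also lower in T_SXB in the 14 libraries, beside 158 of all 305, with a median log2 difference of -0.83 beside -0.04 over all genes, in a table selected on that contrast. Of 28 SREBP targets, 3 are listed, all with a negative r (median -0.59, -0.65 with scaled libraries and -0.34 without libraries 1 to 4): Pnpla3, Hmgcs1, which makes the precursor of mevalonate (r = -0.59, rho = -0.62; p = 0.0279 and 0.0239), and Mvd, a later enzyme of that route (r = -0.49, rho = -0.52; p = 0.0739 and 0.0691). Without libraries 4 and 7 the r of Pparg, Clstn3, Pnpla3, Hmgcs1 and Mvd was -0.59, -0.46, -0.32, -0.37 and -0.12, so that of Mvd rested largely on these libraries. Without library 15, Hmgcs1 and Mvd passed the adjusted limma threshold. Pnpla3 stands in both lists, and its r was -0.27 without library 4, which holds its highest value, 3.9.

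Genes of other responses showed less of a lean. Of 27 acute phase genes 5 are listed. All 5 were higher in T_SXB in the 14 libraries, beside 147 of all 305, in a table selected on that contrast. Their median log2 difference, 1.18, was that of Saa2 (SE 0.97), which had 0.59 (SE 0.99) by label over all 16 libraries. The r of the 5 genes with Eif4ebp3 had a median of 0.05 and a range from -0.40 to 0.08. Hamp, the iron hormone hepcidin, which parted the groups without overlap in the 14 libraries, had r = 0.06 and rho = -0.10 (permutation p = 0.854 and 0.743). The most negative was Socs3, a feedback inhibitor of cytokine signalling, at -0.40. Of 28 immediate early and stress-induced genes 4 are listed, and Socs3 is counted in this list and among the acute phase genes. The heat shock gene Hspa1a had r = 0.57 and rho = 0.63 (permutation p = 0.0325 and 0.0204, adjusted 0.523 and 0.644). Without libraries 4 and 7 its r was 0.62. The other 3 of the 4, Myc, Gadd45g and Socs3, had a negative r. Hspa1a was low, at 0.881 ± 0.695 in T_SXB and 0.42 ± 0.336 in T_Vehicle (SD, n = 7 each). Fkbp5, a target of the glucocorticoid receptor, had r = -0.26; without T_Vehicle library 15 it was -0.86 and passed the adjusted limma threshold, and within groups it was -0.88 in T_SXB and 0.16 in T_Vehicle. Gdf15 had r = -0.47, which was -0.06 without libraries 4 and 7, and G0s2, which inhibits adipose triglyceride lipase, had r = -0.24.

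Markers of other cell types moved with some of these values. Of 20 macrophage and monocyte markers 3 are listed, Itgax, Ccl2 and Mmp12. All 3 had a negative r, beside 203 of all 305 genes, and an unadjusted limma p below 0.05, beside 35 of 305. None passed the adjusted threshold. Permutation p for r and rho was 0.0265 and 0.364 for Ccl2, and 0.0658 and 0.0745 for Mmp12. The median r of the 3 markers, -0.63, was -0.74 with scaled libraries and -0.41 without libraries 1 to 4. Their summed value ran from 0.59 to 5.07 in T_SXB and from 1.01 to 12.39 in T_Vehicle over the 14 libraries, and its r with Eif4ebp3 was -0.65. Itgax alone had r = -0.68 and rho = -0.65 (permutation p = 0.0105 and 0.0151, adjusted 0.399 and 0.644), at a level below 1 in every library. Of 10 adipose tissue markers Cfd, Cidea and Cidec are listed, with a summed value from 1.42 to 10.83 in T_SXB and from 7.03 to 95.11 in T_Vehicle and r = -0.36. Cidea and Cidec are also counted among the genes of lipid storage above, so these lists are not separate and these markers are not particular to adipose tissue here. The 2 listed endothelial and stellate markers of 14, Timp1 and Lgals1, summed to 4.89 to 25.13 in T_SXB and 22.8 to 110.5 in T_Vehicle, with r = -0.48. Lymphocyte and neutrophil markers (3 of 16 listed) had r = -0.11 for their sum, and cholangiocyte and mesothelial markers (2 of 10 listed) -0.17. Of 13 pancreas and muscle markers only Cela2a is listed, with r = 0.34. Timp1, Msln, Upk3b, Cfd and Cidea were each listed at 0 in at least 1 library. The part of other cell types in these results was not tested, and in liver RNA fewer cells of a type and less RNA per cell cannot be told apart. Only 1 of 18 hepatocyte markers, Serpina1e, is in the selected table, so the tissue label could be checked no further; it was present in every library, from 955.9 to 14484, with r = 0.30.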

How the data were processed

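Per the labels' protocols, liver RNA was extracted with TRIzol and read as pairs of 150 bases on an Illumina HiSeq. Tools listed in the submitters' processing notes, without versions or roles, are DESeq2, RSEM, StringTie, HISAT2 and fastp, and the build is GRCm38. The authors deposited 1 table per experiment, whose library columns hold a normalised signal per gene, and whose comparison columns hold a ratio, its log2 fold change, a p-value and an adjusted p-value under a header shifted by 1 column. The signal is rounded to 0.01, and every step of 0.01 below 0.1 occurs in every T library, so steps of single reads cannot be read; depth is unknown.

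Groups follow the treatment label. Values were taken as log2(value + 1) and fitted over all 306 genes of T with limma 3.58.1 (R 4.3.3). Covariation used limma with group and Eif4ebp3 as terms, two-sided, Benjamini-Hochberg over 305 genes, and 100000 two-sided permutations within groups (Python 3.11.15, numpy 2.4.6). The covariation fit was tested on simulated data. Genes with the 8 highest and 5 lowest r (symbols other than Gm or Rik models, averaging 1 or more in T_SXB or T_Vehicle) were named, with the largest absolute r of each of 18 lists and 5 genes known from earlier results, except 2 that are not reported here; others are said to be outside this rule or are members of the lists. The gene, lists and rules were chosen with earlier results of these data known. No T libraries were identical. Alternatives were pseudocounts of 0.1 and 0.01, libraries left out, exchanged, scaled or as a term, a mean of at least 1, trend and robust fitting, and a threshold of 0.01.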

Additional observations from a re-analysis of the deposited data

Results flagged for a closer look

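Of 56 groups of values examined, Eif4ebp3 and 26 other genes in each treatment group, 13 had a highest library set apart from the next by more than Dixon's critical share of the range. The values were taken on the linear scale. A rate of about 1 in 20 by chance holds for normally distributed values, so the count of 13 cannot be set against it where values are skewed. For Eif4ebp3 it was T_Vehicle library 16, at 134.67 beside 69.17 for the next (n = 8). On this linear scale no library was set apart for Eif4ebp3 in T_SXB, nor in either group of the 14 libraries. The flags depend on the scale. As log2(value + 1), T_Vehicle library 16 was at 7.08 beside 6.13 for library 15, and T_SXB library 18 at 3.86 beside 5.90 for library 7.

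The other flags are in the 14 libraries. T_Vehicle library 4, the lowest in Eif4ebp3, was set apart as highest for Ccl2 (9.41), Pnpla3 (3.9) and mt-Atp6 (6421.52). T_SXB library 3, the second lowest of the 7 T_SXB libraries in Eif4ebp3, was set apart for Ccl2 (4.39) and Pnpla3 (0.5). T_SXB library 7 was set apart for Gdf15 (14.24), library 13 for Hspa1a (2.37) and library 2 for Zbtb16 (7.18). T_Vehicle library 11 was set apart for Cfd (63.66) and Cidec (24.46), library 14 for Moxd1 (9.87) and library 15 for Hspa1a (1.12).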

How the results depend on the processing

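The log2 difference of Eif4ebp3 stayed above 0 and its ratio of means above 1 under every alternative run. Because the gene was listed for this contrast, its sign is a description and no test. The difference ran from 0.78 (SE 0.64, by label without libraries 1 to 4) to 1.98 (SE 0.31, without libraries 15, 16 and 18). By label over all 16 libraries it was 1.16 (SE 0.52). With pseudocounts of 0.1 and 0.01 the difference was 1.18 each time (median over all genes -0.16 and -0.37, in place of -0.02), with scaled libraries 1.06 and with libraries 1 to 4 as a term 1.23. Covariation calls depended on libraries 16 and 18: by label over all 16 libraries 29 genes passed (3 with and 26 against Eif4ebp3), and with their groups exchanged 0. The authors' fold change of Eif4ebp3, 3.61, is nearer the ratio with these groups exchanged, 3.68, than that by label, 2.16. If the authors selected the genes by column block, the deviations by label hold the selecting contrast, whichever label is right. The calls by label over all 16 libraries are therefore not read as covariation within groups. Leaving out each of the 14 libraries gave 0 to 7 genes, with 7 without library 15 and 1 without library 11. Tubb2a (-0.84), Phospho1 (-0.73), Gdf15 (-0.71) and Cfd (-0.70) were among those that passed by label over all 16 libraries. Values of r that changed sign were those of Mup-ps12 (-0.43), Fkbp5 (0.39) and Socs3 (0.41) by label over all 16, Fkbp5 (0.0281) and Hamp (-0.0673) without libraries 1 to 4, Upk3b (0.0538) and G0s2 (0.14) with scaled libraries, and Zbtb16 (-0.0286) and Hamp (-0.10) as rho. Leaving out 1 library gave Zbtb16 -0.12 to 0.40 and Hamp -0.14 to 0.21. Listed genes without overlap numbered 3 without libraries 16 and 18, and 3 with their groups exchanged. The cause was not tested. Depth is unknown, and 220 of 306 genes average below 1. No paired analysis was possible because library numbers are not shared between groups. Combinations with libraries 16 and 18 left out, and the overlap counts beyond the main one, were added after seeing the data.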
